A study of Mus musculus with 15 samples.

Results

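Chemokines are small secreted or cell-bound proteins that guide the movement of leukocytes, and chemokine receptors are the proteins on the cell surface that bind them. The genes described here are the protein-coding mouse genes whose symbols name them as a CC, CXC, CX3C or XC chemokine ligand or receptor. The rule gave 62 of the 39179 gene entries in the count tables, of which 44 are ligand genes and 18 are receptor genes. They carry 57 symbols, because Ccl19, Ccl21a, Ccl21b and Ccl27 each have more than 1 entry. Cxcl11 is annotated as a polymorphic pseudogene in GENCODE vM21 and is therefore no member.

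Ligands fall into groups by the receptor they bind: Cxcl9 and Cxcl10 bind CXCR3 on activated T and NK cells, Ccl2, Ccl7 and Ccl12 bind CCR2 on monocytes, Ccl3, Ccl5, Ccl6 and Ccl9 bind CCR1, and Cxcl1, Cxcl2, Cxcl3 and Cxcl5 bind CXCR2 on neutrophils. Many of these inflammatory ligands are transcribed at a low level until interferon or NF-kB signalling induces them. Others, such as Ccl28, Cxcl14 and Cxcl17, are made constitutively by epithelia of mucosa and glands, and Ccl28 is known from salivary gland, where it attracts cells that make IgA.

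RNA of the submandibular gland, a major salivary gland, was sequenced from adult male C57BL/6 mice in 15 libraries, 3 in each of 5 groups. Glands of the NT group were from untreated wild-type mice. Those of the IR group were from wild-type mice 7 days after local irradiation. The groups IR+GFP, IR+Gli1 and IR+Shh were irradiated alike, taken at the same time and had received a gene by transfer into the gland. The gene was GFP, a fluorescent protein that serves as the transfer control, Gli1, a transcription factor at the end of the Hedgehog pathway, or Shh, the secreted ligand of that pathway. The labels name neither the vector nor its promoter, and they leave unsaid whether each library stands for its own animal. The p-values below therefore measure only the spread between these samples.

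Each group held a pair of libraries that differed by less than sampling noise (mean chi-square per gene 0.215 to 0.337, against 22.0 to 223 in the other 10 pairs of a group). Near-identical libraries were averaged and counted as 1 sample, which left 10 samples, n = 2 per group. Gene reads per library ranged from 18205941 to 41064723. Levels are CPM (read counts relative to the library total, scaled by TMM factors), and the values of a group are given in the order of the library numbers. Genes of the neighbouring sublingual gland summed to 34460 CPM in the combined sample NT 2 and 3, against 1.46 CPM in NT 1 and 184 CPM in IR+GFP 1 and 2. Markers of submandibular acini and ducts summed to between 11990 and 29470 CPM in IR+Gli1, 51020 to 57170 CPM in IR+Shh and 76110 to 116800 CPM in NT, IR and IR+GFP. Egf made up much of these sums, at 6390 and 18711 CPM in IR+Gli1 and at 54207 and 50266 CPM in IR+GFP. Aqp5 was at 137 and 191 CPM against 227 and 230 CPM, and Ascl3 at 40.3 and 40.7 CPM against 35.4 and 36.2 CPM. Of the 8 markers, 4 were called lower in IR+Gli1 against IR+GFP (adjusted p under 0.05), beside 5.71% of all genes tested. The TMM factors of IR+Gli1 were 1.72 and 1.31, against 0.865 to 0.994 elsewhere. Reads with several alignments made up 8.22% in IR+GFP 3 and 7.53% in IR+Gli1 3, and 2.89% to 4.79% of the remaining libraries. Mouse Gli1 was at 0.540 to 0.672 CPM in the group labelled IR+Gli1, within the 0.514 to 0.768 CPM of NT, IR and IR+GFP, and at 2.69 to 4.24 CPM in IR+Shh. Per total count alone it was at 0.878 to 0.962 CPM in IR+Gli1, above the 0.424 to 0.747 CPM of NT, IR and IR+GFP. Mouse Shh had 0 reads in all 15 libraries. As the sequence of the transferred genes is not given in the labels, the counts give no measure of its transcript.

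Of the 62 members, 31 had enough reads to be tested. Of the other 31, 11 had 0 reads in all 15 libraries: Cxcr1, Ccl26, Ccl27b, Ccl21c, all entries of Ccl21b and Ccl27, and the second entries of Ccl19 and Ccl21a. The remaining 20 had 2 to 194 reads in the 15 libraries together. Reads of near-identical copies such as the Ccl21 and Ccl27 genes can align to several places, and such reads were not counted, so that an entry at 0 reads does not show that the gene was silent. Of the 31 tested members, Ccl2, Cxcl1, Cxcl13 and Cxcr3 reached the filter's 0.368 CPM, taken before TMM scaling, in 0 or 1 of the 8 samples outside IR+Gli1, so they passed it through IR+Gli1.

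Per length of transcript, Cxcl17 led all members in the gland, with a mean of 212 RPKM (CPM per kilobase of exon) over the groups. Cxcl14 (15.2 RPKM) and Ccl28 (14.3 RPKM), both epithelial ligands, came next. The transmembrane ligands followed, Cx3cl1 at 8.71 RPKM and Cxcl16 at 7.79 RPKM, and then Ccl7 at 7.42 RPKM. The mean of Ccl7 came from 1 group: it was 35.5 RPKM in IR+Gli1 and 0.175 to 0.636 RPKM in the other groups. Ligand counts summed to 826 and 487 CPM in IR+Gli1 and to between 269 and 362 CPM in the 8 other samples. Receptor counts summed to 68.5 and 41.8 CPM in IR+Gli1 and to between 12.1 and 21.0 CPM in the others.

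Comparing IR with NT asks how irradiated glands differed from untreated ones after 7 days. No tested member passed the threshold (adjusted p under 0.05 in edgeR's quasi-likelihood test, adjusted over all genes), and 5 of 31 had an unadjusted p under 0.05. Across all genes tested, 0.678% passed. DESeq2 called 2 members, Ccl6 and Ccl9, as lower, and 3.35% of all genes, and limma-voom called 0 members. Members lay lower more often than higher: in 16 of 31 both IR samples were below both NT samples, and in 1, Ccl12, both were above, where the same held for 27.3% (lower) and 23.9% (higher) of all genes tested. The median log2 difference of the 31 was -0.40, against -0.02 over all genes tested.

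The CC ligands Ccl3, Ccl4, Ccl5, Ccl6 and Ccl9 all lay lower in IR without overlap, and none of these 5 passed. Ccl6, a macrophage ligand of CCR1, was at 8.83 and 12.0 CPM in NT and at 2.005 and 2.97 CPM in IR. Its log2 fold change was -2.08 ± 0.43 (SE) with an adjusted p of 0.0829, the smallest of any member in this comparison. Ccl9, its neighbour and close relative, was at 4.70 and 7.45 CPM in NT and at 1.09 and 2.11 CPM in IR (log2 -1.97 ± 0.57, adjusted p = 0.158). Ccl5 was at 1.30 and 1.69 CPM in NT and at 0.340 and 0.541 CPM in IR (log2 -1.80 ± 0.71, adjusted p = 0.246). Ccl3 and Ccl4 were at 0.162 to 0.637 CPM in these samples. Macrophage and monocyte markers moved with these ligands: 9 of the 10 lay lower in IR without overlap, none passed, and they summed to 136 to 167 CPM in NT and 108 to 110 CPM in IR. Their part in the result was not tested, and in whole tissue fewer cells of a type and less RNA per cell cannot be told apart.

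Cxcr3, the receptor of Cxcl9 and Cxcl10, was at 0.728 and 0.294 CPM in NT and at 0.136 and 0.0541 CPM in IR (log2 -2.29 ± 0.66, adjusted p = 0.140). Ccl28 was at 78.5 CPM in NT 1, at 137.8 CPM in the combined sample NT 2 and 3, and at 69.3 and 65.0 CPM in IR (log2 -0.69 ± 0.33, adjusted p = 0.340). The higher of its NT values belongs to the sample that carries the sublingual gland genes, whose part in the result was not tested. Cxcl9 and Cxcl10 were low in both groups: Cxcl9 was at 0.0607 and 0.477 CPM in NT and at 0.340 and 0.162 CPM in IR, and Cxcl10 at 0.303 and 0.697 CPM in NT and at 0.408 and 0.325 CPM in IR. Ccl2 was at 0.212 and 0.110 CPM in NT and at 0.136 and 0.325 CPM in IR. The groups overlap for all 3 genes. Cx3cl1, the membrane-bound ligand of CX3CR1, stood at 25.6 and 24.7 CPM in NT and at 24.0 and 25.9 CPM in IR, which also overlap.

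Transfer of GFP was compared with irradiation alone to show what the transfer itself was accompanied by. No member passed, as no gene of the 14300 tested did (0%), and both DESeq2 and limma-voom called 0 members. In 9 members both IR+GFP samples lay above both IR samples and in 2 below, against 16.9% and 15.9% of all genes tested. Of the 31, 1 had an unadjusted p under 0.05. It was Cxcl16, a transmembrane ligand that binds CXCR6 and also acts as a scavenger receptor, which was at 21.0 and 18.9 CPM in IR and at 24.1 and 31.7 CPM in IR+GFP.

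The comparison of IR+Gli1 with IR+GFP asks what transfer of Gli1 was accompanied by, beyond transfer of a control gene. Of the 31 members tested, 18 were higher in IR+Gli1, 1 was lower and 12 did not pass. Across all genes tested 8.23% were called higher and 5.71% lower. Ccl2, Cxcl1 and Cxcl13 are among the 18 and entered the test through IR+Gli1, the group in which they are high; of the 27 members that pass the filter without that group, 15 were higher and 1 was lower. The 18 that rose were 16 ligands (Ccl2, Ccl3, Ccl4, Ccl5, Ccl6, Ccl7, Ccl8, Ccl9, Ccl12, Cx3cl1, Cxcl1, Cxcl9, Cxcl10, Cxcl13, Cxcl17 and Xcl1) and 2 receptors, of which Ccr2 is described here. Ccl24 fell. In 22 members both IR+Gli1 samples lay above both IR+GFP samples and in 3 below, against 28.9% and 27.3% of all genes tested. In 17 of the 18, both IR+Gli1 samples lay above all 8 other samples of the study. The 18 were chosen as higher in IR+Gli1, so this order is no further evidence. Over all genes tested, without such a choice, it held for 14.7%. The exception among the 18 was Cxcl13, which was at 0.486 CPM in IR+Gli1 1 and 2 and at 0.514 CPM in NT 2 and 3.

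The size of the rise differed within the IR+Gli1 group. In 17 of the 18, the combined sample IR+Gli1 1 and 2 was higher than IR+Gli1 3, with a median ratio of 2.62 and the largest, 6.28, for Cxcl10. Cxcl13 went the other way, with a ratio of 0.237. The calls rest on a spread estimated over all 5 groups. When these groups were fitted without the others 0 members passed, without the combined sample IR+GFP 1 and 2 none passed, without IR+GFP 3 there were 11, without IR+Gli1 1 and 2 there were 13, and limma-voom called 10.

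The genes of the CXCR3 ligands lie beside each other on chromosome 5 (GRCm38), Cxcl9 at 92321347 to 92328079 and Cxcl10 at 92346638 to 92348889, both on the minus strand and 18.6 kb apart. Cxcl9 was at 49.9 and 16.8 CPM in IR+Gli1 and at 0.426 and 0.984 CPM in IR+GFP. In the other groups it was at 0.0607 to 1.60 CPM. The log2 fold change of IR+Gli1 over IR+GFP was 5.63 ± 0.82 (adjusted p = 0.00863), a fitted 49.7-fold rise. Cxcl10 was at 49.6 and 7.90 CPM in IR+Gli1 and at 0.597 and 0.923 CPM in IR+GFP, with log2 5.28 ± 1.04 (adjusted p = 0.0227). Both IR+Gli1 values of Cxcl10 exceeded every other sample, the highest of which was 1.82 CPM in IR+Shh 1 and 3. The gene overlaps Art3 on the other strand, and as the strand mode of the counting is not given in the sources used here, reads of the genes cannot be told apart. Art3 had 1164 reads in all libraries together, against 5932 of Cxcl10. Cxcl11, the pseudogene beside the rule, had 208, 147 and 19 reads in the 3 libraries of IR+Gli1, 0 reads in all 9 libraries of NT, IR and IR+GFP, and 3, 0 and 3 in IR+Shh.

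The bases before the start sites of Cxcl10, Cxcl9 and Cxcl1 are shown because these members rose together and are known targets of interferon or NF-kB signalling. Promoter windows come from RefSeq (GRCm38.p6), from 250 bases before to 50 bases after the start. They were found for 41 of the 57 member symbols and 12 of the 18 that rose, and the 250 bases before the start are printed 5′ to 3′ on the strand of the gene, with matches to the searched motifs in capitals. The windows are chr5:92348890-92349139 for Cxcl10 and chr5:92328080-92328329 for Cxcl9, both on the minus strand, and chr5:90890995-90891244 on the plus strand for Cxcl1.
Cxcl10: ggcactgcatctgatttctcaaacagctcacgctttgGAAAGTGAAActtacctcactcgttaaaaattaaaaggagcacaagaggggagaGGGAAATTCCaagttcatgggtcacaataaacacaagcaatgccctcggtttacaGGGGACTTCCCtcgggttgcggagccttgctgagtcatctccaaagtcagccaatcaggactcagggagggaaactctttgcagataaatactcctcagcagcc
Cxcl9: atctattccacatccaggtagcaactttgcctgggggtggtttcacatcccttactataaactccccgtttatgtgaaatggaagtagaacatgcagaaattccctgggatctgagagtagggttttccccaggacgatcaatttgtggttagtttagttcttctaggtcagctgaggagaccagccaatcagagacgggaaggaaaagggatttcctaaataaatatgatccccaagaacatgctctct
Cxcl1: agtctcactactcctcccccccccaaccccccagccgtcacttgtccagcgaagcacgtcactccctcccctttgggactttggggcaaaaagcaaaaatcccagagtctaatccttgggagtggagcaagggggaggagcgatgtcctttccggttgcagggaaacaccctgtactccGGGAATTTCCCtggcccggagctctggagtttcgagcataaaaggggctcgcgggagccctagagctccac

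The 4 motifs were searched on both strands of the windows of 300 bases. The core of the interferon-stimulated response element (ISRE), GAAA and GAAA with any 2 bases between, matched in the Cxcl10 window as GAAAGTGAAA at -213 from the start. The NF-kB consensus matched at -159 and, in overlapping matches, at -104 and -103. The Cxcl1 window held overlapping NF-kB matches at -71 and -70, and the windows of Cxcl9 and Cx3cl1 held no match to any of the 4. Ccl2 and Cxcl16 are not in the table. The ISRE core occurred in 3.44% of all 32851 windows, for 3 of the 41 member symbols and, among the 12 members that rose and have a window, in Cxcl10 alone. The NF-kB consensus occurred in 8.46% of all windows, for 11 of the 41 member symbols and, among the 12, in windows of Cxcl10, Cxcl1 and Ccl9. A symbol was counted if any of its windows matched, so counts of symbols and shares of windows are unlike measures. The interferon-gamma activated site (GAS, TTCNNNGAA) occurred in 8.3% of all windows, and the Gli consensus GACCACCCA in 0.253%. Neither matched a window of the 12, and the Gli consensus matched none of the 41 member windows. A match is a string of letters in a window and not a shown binding site.

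All 3 ligands of CCR2 rose, and Ccl7 and Ccl2 had the largest fitted log2 values of the 18. Ccl2 (chromosome 11, 82035571 to 82037453, plus strand), the main attractant of monocytes, was at 43.2 and 8.77 CPM in IR+Gli1 and at 0.341 and 0.308 CPM in IR+GFP. Its highest level in any other sample was 0.390 CPM, in IR+Shh. The log2 fold change was 6.30 ± 0.90 (adjusted p = 0.00798). Ccl7 was at 47.2 and 9.68 CPM in IR+Gli1 and at 0.512 and 0.123 CPM in IR+GFP (log2 6.36 ± 1.01, adjusted p = 0.0111). Ccl12, a mouse relative of Ccl2, was at 17.0 and 3.99 CPM in IR+Gli1 and at 0.597 and 0.554 CPM in IR+GFP (log2 4.19 ± 0.66, adjusted p = 0.00774). The 3 ligands summed to 107 and 22.4 CPM in IR+Gli1 and to between 0.667 and 2.34 CPM in the 8 other samples.

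The 5 CC ligands Ccl3, Ccl4, Ccl5, Ccl6 and Ccl9 all rose. Ccl6 was at 28.7 and 14.2 CPM in IR+Gli1 and at 1.36 and 2.83 CPM in IR+GFP (log2 3.40 ± 0.45, adjusted p = 0.00495). The NT samples came nearest, at 8.83 and 12.0 CPM, still below both IR+Gli1 samples. Ccl9 was at 28.6 and 12.4 CPM in IR+Gli1 and at 1.19 and 2.58 CPM in IR+GFP (log2 3.49 ± 0.58). Ccl5, an attractant of T cells and monocytes, was at 21.5 and 7.47 CPM in IR+Gli1 and at 0.512 and 1.48 CPM in IR+GFP (log2 3.93 ± 0.63). Ccl3 and Ccl4 are also attractants of monocytes and T cells. Ccl4 was at 14.6 and 2.73 CPM in IR+Gli1 and at 0.426 and 0.431 CPM in IR+GFP (log2 4.34 ± 0.81). Ccl3 was at 6.12 and 1.74 CPM in IR+Gli1 and at 0.426 and 0.0615 CPM in IR+GFP (log2 3.88 ± 0.79).

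Both of these groups of ligands are encoded in 2 stretches of chromosome 11, and the members there that were tested rose with 1 exception. Counted from the start of Ccl2, the first stretch holds Ccl7 at 10.1 kb, Ccl11 at 22.3 kb, Ccl12 at 66.3 kb, Ccl8 at 79.6 kb and Ccl1 at 141 kb. The second holds Ccl5 at 1490 kb, Ccl9 at 1537 kb, Ccl6 at 1552 kb, Ccl3 at 1612 kb and Ccl4 at 1627 kb. Ccl11, a ligand of CCR3 that attracts eosinophils, lies between genes that rose and did not pass: it was at 4.65 and 6.04 CPM in IR+Gli1 and at 1.79 and 4.31 CPM in IR+GFP (adjusted p = 0.186). Ccl1 had 32 reads in all and was not tested. Ccl8, which mouse CCR8 binds, was at 16.8 and 6.44 CPM in IR+Gli1 and at 0.341 and 1.54 CPM in IR+GFP (log2 3.72 ± 0.70, adjusted p = 0.0139).

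**Figure D1:**
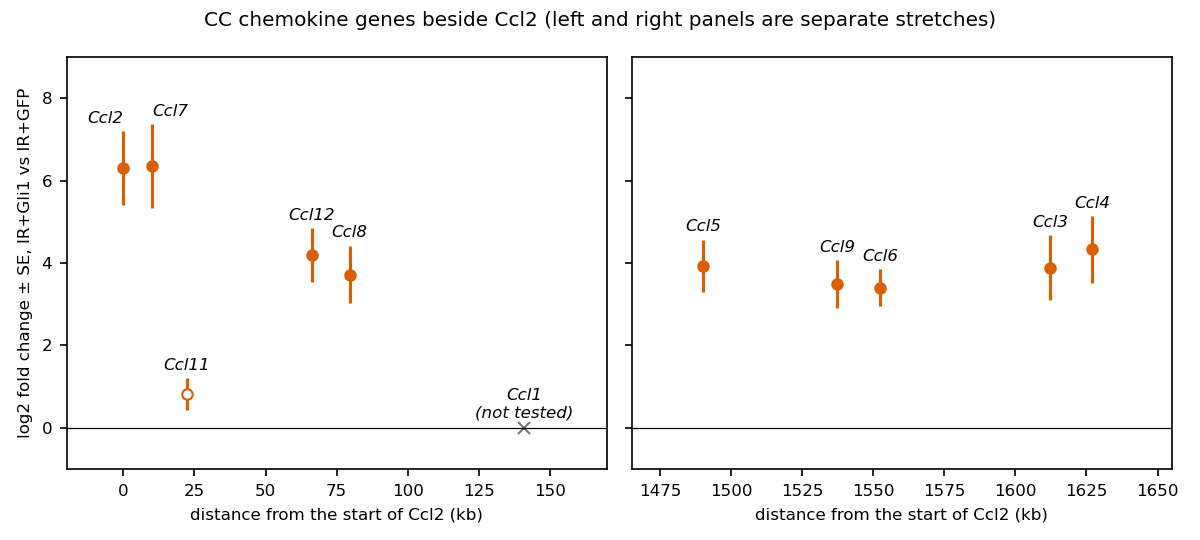
Log2 fold change of IR+Gli1 over IR+GFP, with its SE as bars, for the CC chemokine genes by their distance in kb from the start of Ccl2, in 2 panels for 2 stretches of the chromosome. Filled points passed the test, the open point (Ccl11) did not, and the cross marks Ccl1, which was not tested and has no value; Ccl2 and Ccl7 stand highest at 6.30 and 6.36.

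The ligands of CXCR2, which draw neutrophils, were at very low counts outside IR+Gli1. Cxcl1 (chromosome 5, 90891241 to 90893115) had 126, 85 and 19 reads in the IR+Gli1 libraries, 1, 1 and 2 in IR+GFP and 1, 0 and 0 in IR+Shh. After pairs were averaged, IR+Gli1 had 20.5 times the rate of IR+GFP, with a 95% counting interval of 6.85 to 101 (exact binomial, 125 against 3 reads), and Cxcl1 passed the test with an adjusted p of 0.0214. Such intervals cover counting error only. Cxcl5 had 35, 28 and 2 reads in IR+Gli1 and 1 read in the 12 other libraries. Cxcl3 had 6, 3 and 0 reads in IR+Gli1 and 0 elsewhere. Cxcl2 had 26, 14 and 0 reads in IR+Gli1 and at most 1 read in any other library. Their receptor Cxcr2 had 4, 3 and 3 reads in IR+Gli1 and 0 in the 12 other libraries. None of Cxcl2, Cxcl3, Cxcl5 and Cxcr2 had enough reads to be tested, and Cxcr1 had 0 reads throughout.

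Xcl1, a ligand made by cytotoxic lymphocytes, was at 2.77 and 1.70 CPM in IR+Gli1 and at 0.0853 and 0.492 CPM in IR+GFP (log2 3.07 ± 0.64, adjusted p = 0.0152). Cxcl13, which attracts B cells through CXCR5, had 32, 22 and 52 reads in the IR+Gli1 libraries and 1, 1 and 2 in those of IR+GFP. The ratio was 12.9 with a counting interval of 4.27 to 64.1, and the adjusted p was 0.0246. The NT libraries had 13, 18 and 11 reads, so that IR+Gli1 1 and 2 did not stand above NT. Ccl24, a ligand of CCR3, was the member that fell: it had 8, 6 and 10 reads in IR+GFP and 1, 1 and 0 in IR+Gli1. The rate in IR+GFP was 34.6 times that in IR+Gli1, with an interval of 5.42 to 1446 (17 against 1 read after averaging, adjusted p = 0.0410). It also had 0 reads in libraries 1 and 3 of IR+Shh, and 8 in library 2.

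Among ligands with high counts, the rise was smaller and the spread less. Cx3cl1 (chromosome 8, 94772009 to 94782427) was at 71.1 and 49.4 CPM in IR+Gli1 and at 26.7 and 27.1 CPM in IR+GFP. All NT, IR and IR+GFP samples lay within 24.0 to 27.1 CPM. The log2 fold change was 1.17 ± 0.15 (adjusted p = 0.00350), the smallest adjusted p of any member. Its neighbours Ccl22 and Ccl17, ligands of CCR4, had 96 and 34 reads in all and were not tested. Cxcl17, an epithelial ligand, was at 337 and 223 CPM in IR+Gli1 and at 121 and 145 CPM in IR+GFP (log2 1.08 ± 0.20, adjusted p = 0.0102).

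Other ligands of the gland did not pass. Cxcl16 was at 27.8 and 28.0 CPM in IR+Gli1, between the 24.1 and 31.7 CPM of the IR+GFP samples. Ccl28 was at 29.0 and 40.6 CPM in IR+Gli1 and at 65.9 and 84.9 CPM in IR+GFP (log2 -1.12 ± 0.34, adjusted p = 0.0714). Both its IR+Gli1 values lay below those of the 8 other samples, the lowest of which was 45.0 CPM in IR+Shh 2. Cxcl14 was at 15.9 and 24.6 CPM in IR+Gli1 and at 26.6 and 28.9 CPM in IR+GFP (adjusted p = 0.116), and its order turned when counts were scaled to the total alone (log2 0.29 in place of -0.46). That scaling moved the median of all genes by 0.79 on the log2 scale and raised the members called to 26 higher and 1 lower, with 68.2% of all genes called. Cxcl16 was among those then called higher (log2 0.79).

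**Figure D2:**
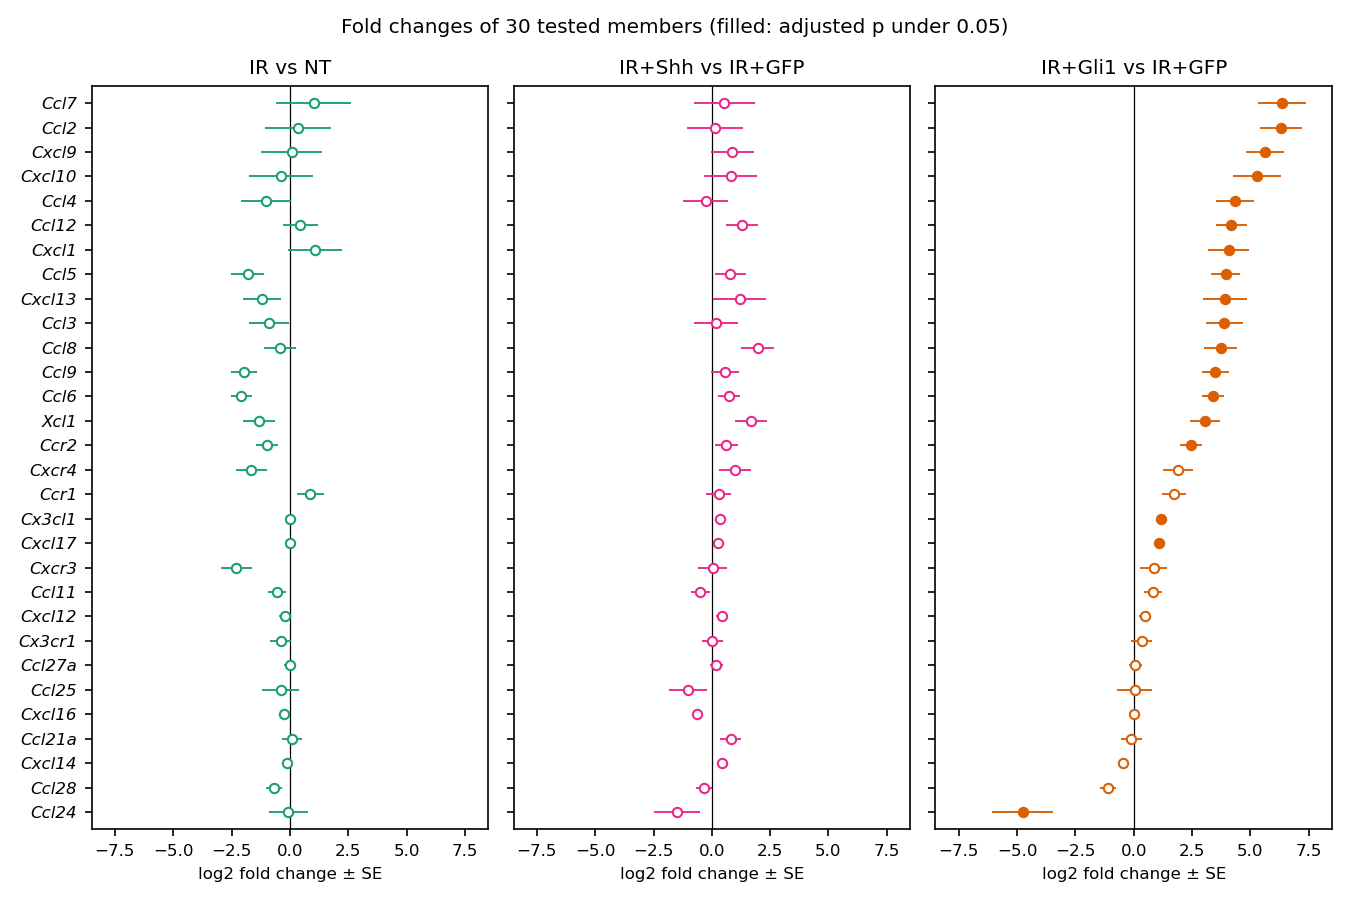
Log2 fold change with its SE for 30 of the 31 tested members in IR against NT, IR+Shh against IR+GFP and IR+Gli1 against IR+GFP, ordered by the last; filled points have an adjusted p under 0.05, and Cxcl1 is left out of the second panel because both groups had 3 reads or fewer. Filled points appear in the third panel only, 17 to the right of 0 and Ccl24 to the left; the fitted value of Ccl24 rests on 1 read in IR+Gli1.

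Of the 18 receptor genes, 6 were tested in all comparisons, and 2 passed in IR+Gli1 against IR+GFP. Ccr2 (chromosome 9, 124101950 to 124113557), the receptor of Ccl2 on monocytes, was at 20.4 and 9.56 CPM in IR+Gli1 and at 1.54 and 4.12 CPM in IR+GFP (log2 2.45 ± 0.48, adjusted p = 0.0146). Ccr1, in the same stretch of the chromosome, was at 7.39 and 3.56 CPM in IR+Gli1 and at 1.45 and 1.91 CPM in IR+GFP. It lay above all 8 other samples and did not pass (adjusted p = 0.0570).

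Cx3cr1, the receptor of Cx3cl1 on monocytes and macrophages, was at 5.08 and 14.5 CPM in IR+Gli1 and at 6.01 and 9.29 CPM in IR+GFP. The IR+Gli1 samples enclosed all others, which were at 6.01 to 9.37 CPM, and the gene did not pass (adjusted p = 0.673). It overlaps several genes, Wdr48, Gorasp1 and Csrnp1 among them, so part of its reads may not be its own. Cxcr3 was at 0.594 and 0.514 CPM in IR+Gli1 and at 0.256 and 0.369 CPM in IR+GFP (adjusted p = 0.368), below the 0.728 CPM of NT 1. With total-count scaling Cxcr3 was called higher (log2 1.66, adjusted p = 0.0272). Cxcr4, the receptor of Cxcl12, was at 1.22 and 0.395 CPM in IR+Gli1 and at 0.256 and 0.185 CPM in IR+GFP (adjusted p = 0.0835). Cxcr6, the receptor of Cxcl16, had 102 reads in all, was at 0.0790 to 0.347 CPM in every sample and was not tested; it overlaps Fyco1 on the other strand.

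Ccr7, by which dendritic cells and lymphocytes reach lymph nodes, was not tested and differed between the libraries of IR+Gli1, with 82 and 60 reads in libraries 1 and 2 and 3 in library 3. The other libraries held 1 to 8 reads. Ccl20, the ligand of CCR6, had 46, 30 and 5 reads in IR+Gli1, 0 in IR+GFP and at most 6 elsewhere. The other untested receptors, Ccr3, Ccr4, Ccr6, Ccr8, Ccr9, Ccr10, Cxcr5 and Xcr1, had 2 to 94 reads in the 15 libraries.

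**Figure D3:**
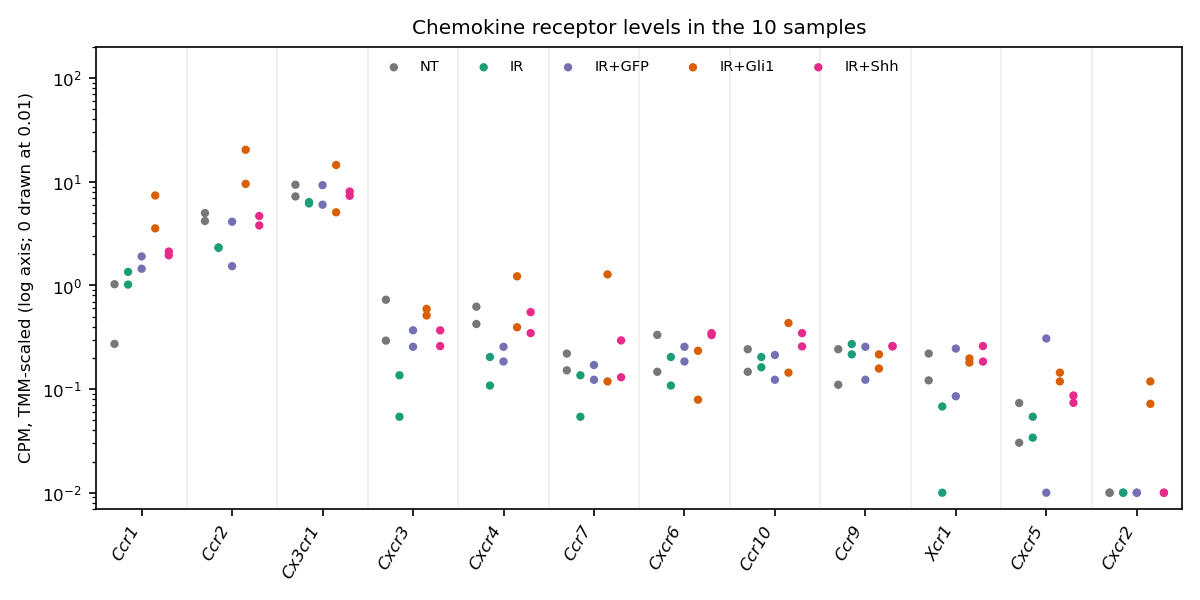
Levels of 12 chemokine receptor genes in the 10 samples, in TMM-scaled CPM on a logarithmic axis, with 1 point per sample and 0 drawn at 0.01. Ccr2 lies highest in IR+Gli1 (20.4 and 9.56 CPM), the IR+Gli1 points of Cx3cr1 (5.08 and 14.5 CPM) enclose those of the other groups, and Cxcr2 has reads in IR+Gli1 alone.

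Most tested markers of macrophages and monocytes and of T and NK cells moved with the rise in IR+Gli1. Across all genes tested, 8.23% were called higher and 5.71% lower. Of 10 macrophage and monocyte markers 7 rose and 3 did not pass. The 10 summed to 286 to 371 CPM in IR+Gli1 and 89.9 to 129 CPM in IR+GFP. Mertk was at 11.8 and 21.3 CPM in IR+Gli1 and at 16.4 and 23.4 CPM in IR+GFP. Single markers of that list moved by very different amounts: the monocyte marker Ly6c2 was at 66.7 and 15.7 CPM in IR+Gli1 and at 0.171 and 0.308 CPM in IR+GFP, Fcgr1 at 46.6 and 14.2 CPM against 1.11 and 1.48 CPM, and Csf1r at 19.9 and 26.2 CPM against 15.4 and 21.0 CPM. T and NK cell markers, of which 3 of the 5 tested rose, summed to 7.11 to 16.8 CPM against 1.62 to 2.77 CPM. Neutrophil markers, of which 1 of the 2 tested rose, summed to 3.44 to 13.7 CPM against 0.341 to 0.738 CPM, with Ly6g at 0 reads in both groups. Of the 5 dendritic cell markers tested 1 rose, 1 fell and 3 did not pass (median log2 0.06); they summed to 16.9 to 17.0 CPM against 4.44 to 8.80 CPM, of which Itgax, also a macrophage gene, made up 14.6 and 14.9 CPM in IR+Gli1, and Cd209a was at 0 there. Of the B and plasma cell markers 1 was tested and did not pass, and they summed to 0.360 to 0.632 CPM against 0.213 to 0.246 CPM. Lymph node markers were near 0 in all groups, and their defining genes Glycam1 and Chst4 were at 0 in IR+Gli1 and IR+GFP. Of that list 1 was tested, Cd22, and it rose, at 0.324 and 0.395 CPM in IR+Gli1 and at 0 and 0.0615 CPM in IR+GFP. Cd22 was at 0.162 CPM or less in every sample outside IR+Gli1. It entered the test through that group, in which it is high, and so did the markers S100a8 of neutrophils and Cd3g of T cells. The part of these cells in the result was not tested.

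Other genes of the pathway rose in part, where 8.23% of all genes tested rose and 5.71% fell. Of 10 atypical receptors and chemokine-related genes outside the symbol rule, 8 were tested and 5 rose in IR+Gli1 against IR+GFP. They are Rarres2, which encodes the attractant chemerin (log2 2.71 ± 0.37), the atypical receptors Ackr1 (4.37 ± 0.84), Ackr3 (0.80 ± 0.21) and Ccrl2 (1.41 ± 0.32), and the chemerin receptor Cmklr1 (0.84 ± 0.23), which is named beyond the rule to complete the count. Of 13 genes that carry or end receptor signals, 8 rose, among them Rgs1 (3.90 ± 0.52) and Rgs2 (1.08 ± 0.23), which limit G protein signals, and the arrestin Arrb2 (1.08 ± 0.15). Ackr1 and Rgs1 passed the filter through IR+Gli1, the group in which they are high. Their highest levels outside it were 0.700 and 0.406 CPM, both in IR+Shh 2, and Ackr1 was at 0.0853 and 0.0615 CPM in IR+GFP. Dock2, needed for lymphocyte migration, rose from 2.36 ± 0.50 CPM in IR+GFP to 9.31 ± 4.18 CPM in IR+Gli1 (SD). Of 6 proteases that shed or trim chemokines, Adam17, which releases Cx3cl1 and Cxcl16 from the membrane, rose (0.45 ± 0.13), Dpp4, which trims Cxcl10 and other ligands, fell (-0.40 ± 0.10), and 4 did not pass. The fall of Dpp4 is smaller than the 0.79 by which total-count scaling moved the median of all genes. Its direction therefore depends on the scaling.

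Of 14 cytokines and transcription factors that induce chemokines, 13 were tested and 8 rose, beside 8.23% of all genes tested. Tnf and Ifng are among the 13 and entered the test through IR+Gli1, the group in which they are high. Elsewhere they were at 0.220 and 0.111 CPM at most. Stat2, which carries interferon signals (log2 1.91 ± 0.16), Nfkbia, an inhibitor and target of NF-kB (1.58 ± 0.12), and Relb, an NF-kB subunit (1.64 ± 0.23), also rose. The medians were 0.82 for the genes outside the symbol rule, -0.03 for the proteases, 1.08 for the signalling genes and 1.64 for the inducing genes, beside 0.01 over all genes tested. No gene of these 4 lists passed in IR against NT, IR+GFP against IR or IR+Shh against IR+GFP by edgeR's test. An unadjusted p under 0.05 was found for 6 signalling and 2 inducing genes in the first of these comparisons, for 1 gene outside the symbol rule and 1 protease in the second, and for 3 genes outside the rule, 1 signalling and 3 inducing genes in the third. The share of all genes with an unadjusted p under 0.05 is not given here for any comparison, so such counts have no background beside them. In IR+Shh against IR+Gli1, 1 gene outside the rule, 5 signalling and 7 inducing genes were lower and 1 protease was higher. Of all genes tested, 4.99% were lower and 2.76% higher there.

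IR+Shh and IR+GFP were compared to ask the same question of Shh transfer. No member passed, 5 of 31 had an unadjusted p under 0.05, and DESeq2 and limma-voom called 0. No gene passed in this comparison (0%). In 12 members both IR+Shh samples lay above both IR+GFP samples and in 4 below, where the same held for 21.7% and 20.4% of all genes tested. The smallest unadjusted p was that of Cxcl16, at 18.2 and 17.8 CPM in IR+Shh and 24.1 and 31.7 CPM in IR+GFP (log2 -0.63 ± 0.13, adjusted p = 0.463). These were the lowest Cxcl16 values of the 10 samples, just under the 18.9 CPM of IR 3. Ccl8 was at 3.03 and 3.91 CPM in IR+Shh and at 0.341 and 1.54 CPM in IR+GFP (log2 1.97 ± 0.70, adjusted p = 0.808). Macrophage and monocyte markers summed to 165 to 167 CPM in IR+Shh and 89.9 to 129 CPM in IR+GFP, with 8 of 10 higher without overlap. T and NK cell markers summed to 4.81 to 4.87 CPM against 1.62 to 2.77 CPM, with all 5 tested higher without overlap. None of these markers passed, and their part in these values was not tested.

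Comparing IR+Shh with IR+Gli1 asks where glands given the ligand differed from those given the transcription factor. Both are set against the same IR+GFP samples above, and this comparison reuses the IR+Gli1 samples, so it adds no independent evidence on IR+Gli1. Of 31 members, 16 were lower in IR+Shh, 1 was higher and 14 did not pass, where 4.99% and 2.76% of all genes, 7.76% together, were called. Ccl2 and Cxcl1 are among the 16 and entered the test through IR+Gli1, the group in which they are high. Both IR+Shh samples lay below both IR+Gli1 samples in 22 members and above them in 2, against 29.7% and 28.8% of all genes tested. The 16 were Ccl2, Ccl3, Ccl4, Ccl5, Ccl6, Ccl7, Ccl9, Ccl12, Cx3cl1, Cxcl1, Cxcl9, Cxcl10, Cxcl16, Cxcl17, Ccr2 and 1 other receptor. None of the 17 calls was made in a fit of these groups alone or without either of the IR+Shh samples. The calls were 8 without IR 1 and 2, 8 without IR 3, 9 without IR+Gli1 1 and 2, and 7 with limma-voom.

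Cxcl9 was at 1.60 and 0.885 CPM in IR+Shh, against 49.9 and 16.8 CPM in IR+Gli1 (log2 -4.76 ± 0.74, adjusted p = 0.0200). Cxcl10 was at 1.82 and 0.811 CPM in IR+Shh (log2 -4.48 ± 0.95, adjusted p = 0.0430). Ccl2 was at 0.390 and 0.332 CPM in IR+Shh, a level its IR+GFP samples also had (log2 -6.17 ± 0.87 against IR+Gli1, adjusted p = 0.0156). Cxcl1 had no read in the averaged IR+Shh samples, so its rate in IR+Gli1 was at least 25.9-fold higher, with a floor of 3 reads over the group. Ccl8, Xcl1 and Cxcl13 had risen in IR+Gli1 against IR+GFP and did not pass here; Ccl8 stood at 3.03 and 3.91 CPM in IR+Shh and at 16.8 and 6.44 CPM in IR+Gli1 (adjusted p = 0.116).

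The epithelial and transmembrane ligands separated the groups in another way. Cxcl16 was at 18.2 and 17.8 CPM in IR+Shh and at 27.8 and 28.0 CPM in IR+Gli1 (log2 -0.63 ± 0.13, adjusted p = 0.0254). Cx3cl1 was at 33.4 and 34.6 CPM in IR+Shh, between the control range and the 71.1 and 49.4 CPM of IR+Gli1 (log2 -0.83 ± 0.15, adjusted p = 0.0184). Cxcl14 was the member that was higher in IR+Shh: it was at 39.2 and 35.4 CPM, the highest of the 10 samples, against 15.9 and 24.6 CPM in IR+Gli1 (log2 0.89 ± 0.18, adjusted p = 0.0219). With scaling to the total count alone, Cxcl14 no longer passed (log2 0.28, adjusted p = 0.160). Cxcl17 was at 163 and 160 CPM in IR+Shh and at 337 and 223 CPM in IR+Gli1 (log2 -0.80 ± 0.20, adjusted p = 0.0435).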

How the data were processed

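Raw read counts per Ensembl gene were deposited by the authors for 15 libraries of mouse submandibular gland. Per the submitters' processing notes, the tools were HTSeq 0.10.0, TopHat2 2.0.13, DESeq2 and Bowtie 0.12.2, with mm10 and GRCm38; the strand mode and annotation release are not given in the sources used here. Per the labels' protocols, RNA was prepared with RNeasy Mini and TruSeq RNA kits. Reads given to no gene (6.98% to 13.9% of a library) were left out of library sizes. Symbols came from GENCODE vM21 for 96.2% of gene IDs.

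Near-identical libraries (chi-square over genes with at least 20 reads) were averaged and rounded, which left 10 samples. Counts were filtered with filterByExpr, which kept 14300 genes, scaled by TMM and fitted over all 5 groups with edgeR 4.0.16 (R 4.3.3, quasi-likelihood test, prior count 0.125, 5 residual degrees of freedom, common biological coefficient of variation 0.191). P-values were Benjamini-Hochberg adjusted over all genes tested in each of 5 comparisons, with a threshold of 0.05. The script was tested on simulated data. Fold changes are log2 with SE; RPKM used exon lengths.

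The members and lists were chosen with earlier results of these data known. Named were Ccl2, Cxcl9, Cxcl10, Cxcl16 and Cx3cl1, every member that passed in a comparison, 6 receptors, the 6 members of highest RPKM and up to 4 genes of each other list by adjusted p; the remaining members are named for their levels or reads and were picked after these were seen. Alternatives were other scalings and filters, DESeq2 1.42.0, limma-voom (limma 3.58.1), other groups in the fit, unmerged libraries, a replicate block, IR as control and each sample left out. Results for 1 member and 1 gene of another list are not reported here; they remain in the counts. Same-numbered libraries were compared by the correlation of their deviations from the group means. It was over 0.1 in 3 of 30 pairs, all of IR+GFP with IR+Gli1 (0.395, 0.330 and 0.394). In each of these groups library 1 nearly equals library 2, and they correlated likewise across numbers (0.376 and 0.352). This is therefore 1 contrast, library 3 against the others, and it cannot show whether the numbers pair the samples.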

Additional observations from a re-analysis of the deposited data

How the results depend on the processing

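No value of the 45 named member and comparison pairs changed direction under an alternative; Cxcl14 in IR+Gli1 against IR+GFP, which is not among them, did with total-count scaling (log2 0.29 in place of -0.46). In IR against NT, where 0 members passed, 7 passed with no low-count filter, 2 with DESeq2, 1 with only the groups compared, 8 with 15 separate libraries, 3 with IR+GFP 3 and IR+Gli1 3 both left out, and 0 to 1 with 1 sample left out. In IR+Gli1 against IR+GFP, where 19 passed, 10 passed with limma-voom, 0 with only the groups compared and 0 to 23 with 1 sample left out (0 without IR+GFP 1 and 2, 11 without IR+GFP 3). With 1 sample left out of a group of 2, the lone sample is assumed to vary like the other groups. In IR+Shh against IR+GFP, where 0 passed, 4 passed with no low-count filter, 3 with 15 separate libraries and 0 with 1 sample left out. In IR+Shh against IR+Gli1, where 17 passed, 26 passed with no low-count filter, 7 with limma-voom, 0 with only the groups compared, 26 with IR+GFP 3 and IR+Gli1 3 both left out, and 0 to 24 with 1 sample left out. In IR+GFP against IR, 0 passed under all 22 alternatives. Of all genes, 29.4% passed in IR against NT with 15 separate libraries, 5.41% with no low-count filter and 3.35% with DESeq2. With only the groups compared it was 0.721%. For IR+Shh against IR+GFP the shares were 3.81% with 15 separate libraries and 1.9% with no low-count filter. They were 11.5% with no low-count filter and 6.56% with limma-voom in IR+Shh against IR+Gli1. limma-voom called 12.4% of all genes in IR+Gli1 against IR+GFP. Fits on 15 separate libraries count near-identical libraries as replicates, and fits of 2 groups leave fewer samples for the spread. The cause of the other differences was not tested. Total-count scaling moved the median of all genes by 0.79 on the log2 scale in IR+Gli1 against IR+GFP. It moved it by 0.15 in IR+Shh against IR+GFP and by -0.65 in IR+Shh against IR+Gli1. In the last, 25 members were then lower and 0 higher, where 56.6% of all genes passed.

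With the replicate number as a block on 15 libraries, 7 members passed in IR against NT, 0 in IR+GFP against IR, 25 in IR+Gli1 against IR+GFP, 2 in IR+Shh against IR+GFP and 25 in IR+Shh against IR+Gli1. Of all genes tested, 28.7%, 0%, 46%, 3.07% and 43.1% passed in these comparisons, in the same order. For 9 of the 10 pairs of groups the numbers do not pair the samples. For IR+GFP and IR+Gli1, a block over the 10 samples, chosen after seeing the data, gave 21 members (19 higher, 2 lower), among them the 19. It called 16.9% of all genes. The block ended no call of the comparisons.

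Precision is limited by 2 samples per group and, for the members Cxcl1, Cxcl13 and Ccl24, by groups with 1 to 3 reads. Of the other lists, Ackr1 and Cd22 were called higher in IR+Gli1 and were at 0.0853 CPM or less in IR+GFP.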
